A study of Mus musculus with 8 samples.

Results

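The 33 keratin and epithelial junction genes described here were taken by gene symbol from the 35275 genes counted in 8 mouse tumours. They comprise 6 keratins, 13 genes of adherens junctions, tight junctions and desmosomes, 7 regulators of epithelial identity, and 7 genes of the epithelial surface, its proteases and its vesicle traffic. RNA was sequenced in bulk from tumours of mice with floxed Nf2 and Cdkn2a alleles (Nf2 f/f;Cdkn2a f/f) that had received a Cre-expressing adenovirus into the peritoneum, and all 8 tumours share this background. Primary peritoneal tumours 19, 20 and 127 came from mice with wild-type Pak2, and primary peritoneal tumours 13, 14A, 61 and 59 from mice that also carried Pak2 f/f and are labelled Pak2-/-. Tumour 14B has the same Pak2 genotype label and is given as a secondary tumour. The series compares genotypes in a mouse model of mesothelioma, a tumour of the lining of body cavities. The sources used here give no promoter for the Cre, no age of the mice and no site for tumour 14B, and do not state whether each tumour is from its own mouse, so p-values measure only the spread between these samples.

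Keratins are the intermediate filament proteins of epithelial cells and form obligate pairs of a type I and a type II chain. Krt8 and Krt18 are the pair of simple, single-layered epithelia, often joined by Krt7 and Krt19, whereas Krt5 and Krt14 are the pair of the basal layer of skin and other stratified epithelia. Epithelial cells hold to one another through E-cadherin at adherens junctions, desmosomal plaques that anchor keratin, and tight junctions that seal the space between cells. Mesothelial cells are unusual in carrying both simple keratins and mesenchymal vimentin, and keratins are used as histological markers when mesothelioma is diagnosed.

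Tumour 14B was sequenced least, to 13469851 counts in all, and tumour 14A most, to 20402401. Levels are given in CPM, that is, counts scaled to the size of each library over the tested genes. A count of 0 allows up to 3 counts, which is 0.139 to 0.193 CPM for a primary tumour and 0.311 CPM for the secondary one, covering counting error only. Pak2 transcripts were not lower in the primaries labelled Pak2-null, at 131 to 238 CPM, than in the wild-type tumours, at 90.1 to 128 CPM. Counts summed over a gene cannot show the loss of a floxed exon, so they do not settle whether Pak2 was deleted, and the label is used here as given. Tumours 19 and 20 had the Xist-positive, Ddx3y-low pattern of females, tumour 127 had transcripts of both genes, and the tumours labelled Pak2-null had the male pattern, so genotype and sex cannot be told apart for most of these samples. Of 16 mesothelial markers, Msln ran from 1.11 to 132 CPM and Wt1 from 1.99 to 18.3 CPM over the 8 tumours, Upk3b from 0.124 to 24.6 CPM, and Calb2 (calretinin) did not exceed 0.308 CPM in any tumour. The list summed to 260 to 949 CPM, with the highest sum in tumour 13, where Msln and Upk3b were lowest. Of the 14 mesothelial markers tested, 6 were higher and 8 lower in the tumours labelled Pak2-null, with none under an unadjusted p of 0.05. Vimentin ran from 1455 to 5736 CPM.

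The keratin and junction genes differed widely between single tumours of the same label. Their summed level was 734, 233 and 291 CPM in wild-type tumours 19, 20 and 127. Among primary tumours labelled Pak2-null it was 180.1 CPM in tumour 13, 296 CPM in tumour 14A, 1778 CPM in tumour 61 and 198 CPM in tumour 59, and it was 637 CPM in the secondary tumour 14B. Tumour 61 was thus the highest and tumour 13 the lowest, and both carry the same label. Jup alone held 138, 226 and 142 CPM of the sum in tumours 20, 127 and 13, and 58.6 and 238 CPM in tumours 19 and 61. The sum in tumours 20, 127 and 13 was therefore mostly Jup and does not stand for the other members. At least 10 CPM was reached by 19 of the 33 genes in tumour 61, 18 in tumour 14B, 16 in tumour 19 and 9 in tumour 14A, but by 4 in each of tumours 20 and 59 and by 1 in each of tumours 127 and 13. In bulk tissue, fewer cells of a type and less RNA per cell cannot be told apart.

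**Figure D1:**
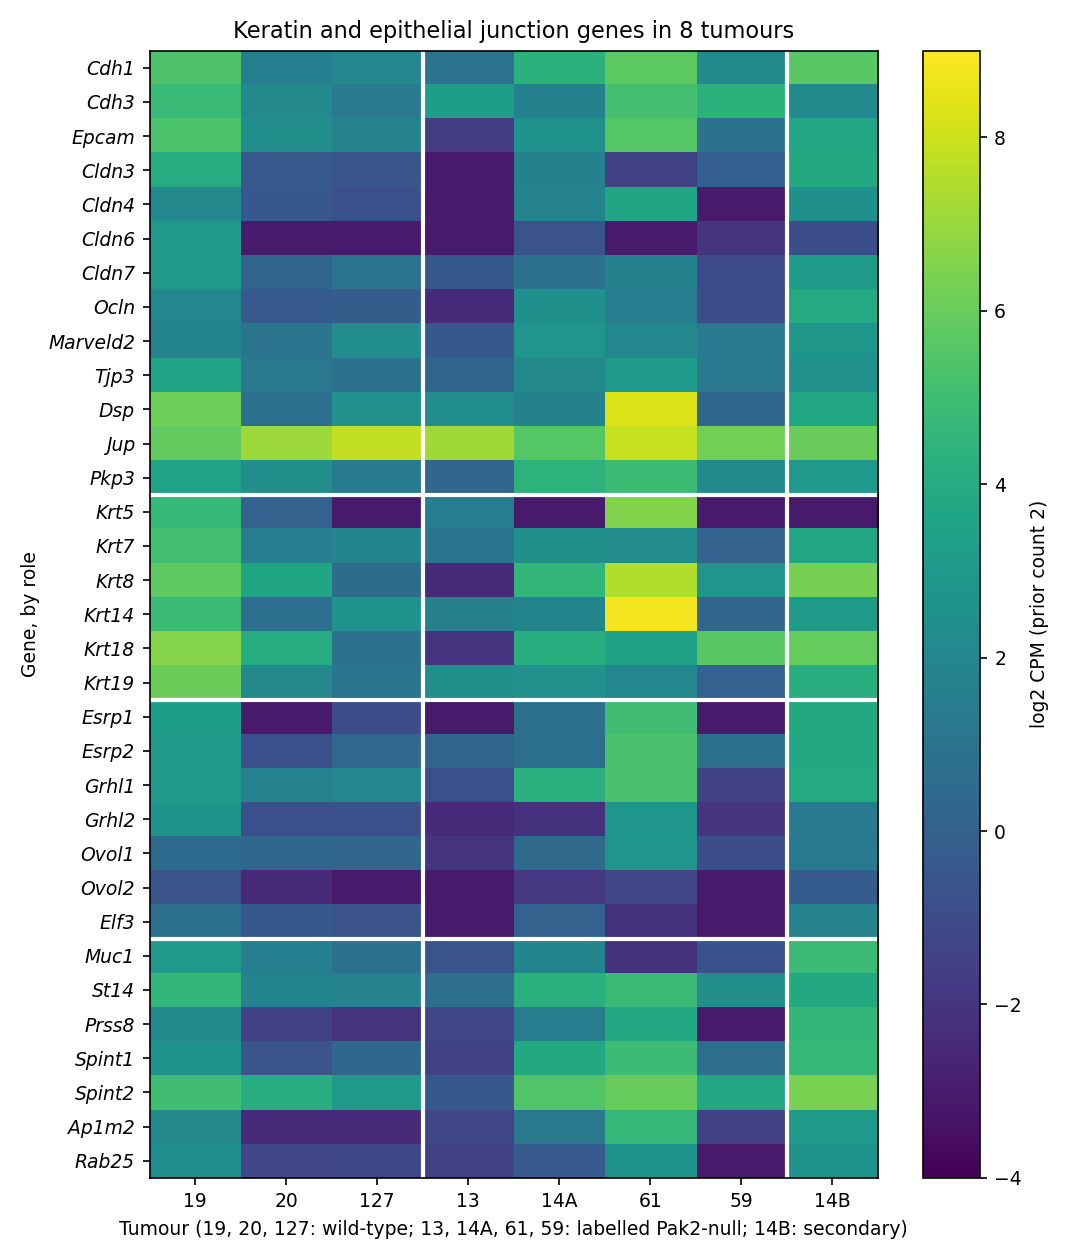
Each row is a gene and each column a tumour, coloured by log2 CPM (prior count 2), with white lines between the 4 roles and between the wild-type, labelled Pak2-null and secondary tumours. The columns of tumours 19, 61 and 14B are bright over most genes and those of tumours 13 and 59 are dark, within and across the genotype labels.

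Of the 33 genes, 30 passed the filter on low counts and were tested among 15412 genes, while Cldn6, Grhl2 and Ovol2 did not pass. No tested member differed between the 4 tumours labelled Pak2-null and the 3 wild-type tumours in edgeR's quasi-likelihood fit at a Benjamini-Hochberg adjusted p of 0.05, where 0.0714% of all genes did. The members' adjusted p-values in that edgeR fit ran from 0.434 for Krt19 to 0.996 for Marveld2. An unadjusted p under 0.05 was reached by 0 members against 12.9% of all genes, and groups that did not overlap were seen for 0 members against 14.0% of all genes. With DESeq2 and with limma-voom 1 member each had an unadjusted p under 0.05, and with limma-voom and sample quality weights 3 did. DESeq2 gave no adjusted p for several members, Krt14 and Krt19 among them. The mean was higher in the tumours labelled Pak2-null for 19 of 30 members, against 54.5% of all genes, and the median log2 fold change (labelled Pak2-null minus wild-type) was 0.49, against 0.06 over all genes. The shares of 54.5% and 12.9% of all genes are also the background for the counts given for other gene lists. The median standard error (SE) of a member was 1.43 on the log2 scale, against 0.43 over all genes, so this design could have missed differences of several fold in either direction.

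The spread inside each label was wide for these genes. The median distance between the highest and the lowest of the 4 tumours labelled Pak2-null was 4.99 log2 units over the members and 1.14 over all genes, and between the 3 wild-type tumours it was 3.46 and 0.85 log2 units. Tumour 61 was the highest of the 7 primary tumours for 20 of 30 members, where it was highest for 10.5% of all genes, and tumour 19 for 8 of 30, against 16.1%. Tumour 13 was the lowest for 15 of 30, against 20.1% of all genes, and tumour 59 for 8 of 30, against 7.71%. Tumour 61 exceeded tumour 13 by more than 2-fold for 26 of 30 members, against 17.0% of all genes. Esrp1, Prss8, Ap1m2 and Rab25 are in both counts for tumour 61, though without that tumour they did not pass the filter on low counts. Tumour 19 exceeded both other wild-type tumours by more than 2-fold for 25 of 30, against 8.42%.

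The simple keratins were present in most tumours at levels that overlapped between the labels. Krt8, the type II chain of the pair, stood at 54.1, 12.6 and 1.41 CPM in wild-type tumours 19, 20 and 127, at 0.0619, 24.4, 181 and 6.67 CPM in tumours 13, 14A, 61 and 59, and at 79.3 CPM in tumour 14B. Krt18, its type I partner, stood at 99.2, 16.3 and 1.67 CPM across tumours 19, 20 and 127, at 0.124, 17.7, 10.6 and 51.7 CPM in tumours 13, 14A, 61 and 59, and at 60.1 CPM in tumour 14B. Both were close to absent in tumour 13, with 1 count of Krt8 and 2 counts of Krt18, and low in wild-type tumour 127. The groups overlapped for both, with a log2 fold change of 1.23 (SE 1.86) for Krt8 and -0.94 (SE 1.56) for Krt18 (edgeR quasi-likelihood adjusted p = 0.818 and 0.836).

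The partners did not keep a fixed ratio. Per gene length, Krt8 over Krt18 was 0.423, 0.599 and 0.656 in the wild-type tumours 19, 20 and 127. It was 1.07 in tumour 14A and 1.02 in tumour 14B, but 13.2 in tumour 61 and 0.1000 in tumour 59. Tumour 61 therefore held an excess of Krt8 and tumour 59 an excess of Krt18, and both carry the Pak2-null label. The genes are neighbours on chromosome 15 of GRCm38, Krt8 at chr15:101996711-102004342 on the minus strand and Krt18 at chr15:102028216-102032026 on the plus strand. A processed pseudogene, Krt8-ps, matched Krt8 at 98.6% identity over 99.6% of its 945 bases and was not analysed here, so how reads were shared between the copies, and with it the level of Krt8, is uncertain.

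Krt7 and Krt19, which accompany the simple pair in ducts and in mesothelium, peaked in tumour 19. Krt7 stood at 33.8, 2.79 and 3.53 CPM across tumours 19, 20 and 127, at 1.86, 5.50, 4.74 and 0.926 CPM in tumours 13, 14A, 61 and 59, and at 13.6 CPM in tumour 14B. Krt19 stood at 68.0, 4.28 and 1.86 CPM across tumours 19, 20 and 127, at 5.51, 5.91, 4.10 and 0.926 CPM in tumours 13, 14A, 61 and 59, and at 18.1 CPM in tumour 14B. Tumour 61, which had the most Krt8, was in the middle of the range for both, and tumour 59 was the lowest. Their log2 fold changes, -2.02 (SE 1.01) and -2.57 (SE 1.21), had the lowest p-values among the members (edgeR quasi-likelihood adjusted p = 0.464 and 0.434), and without tumour 19 they were 0.05 and 0.42.

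The basal keratins were concentrated in tumours 61 and 19. Krt5, the basal type II chain, stood at 25.8, 0.931 and 0 CPM across tumours 19, 20 and 127, at 2.72, 0, 91.4 and 0 CPM in tumours 13, 14A, 61 and 59, and at 0 CPM in tumour 14B. Krt14, the basal type I chain, stood at 29.3, 1.55 and 6.22 CPM across tumours 19, 20 and 127, at 3.03, 3.75, 443 and 1.11 CPM in tumours 13, 14A, 61 and 59, and at 8.29 CPM in tumour 14B. Krt14 was thus detected in every tumour, whereas Krt5 had 0 counts in 4 of 8 tumours, at each of which up to 3 counts is allowed. Per gene length, Krt5 over Krt14 was 0.683 in tumour 19, 0.465 in tumour 20 and 0.696 in tumour 13, and 0.160 in tumour 61. Krt14 had a log2 fold change of 3.18 (SE 2.25, edgeR quasi-likelihood adjusted p = 0.598), and without tumour 61 it was -2.21.

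**Figure D2:**
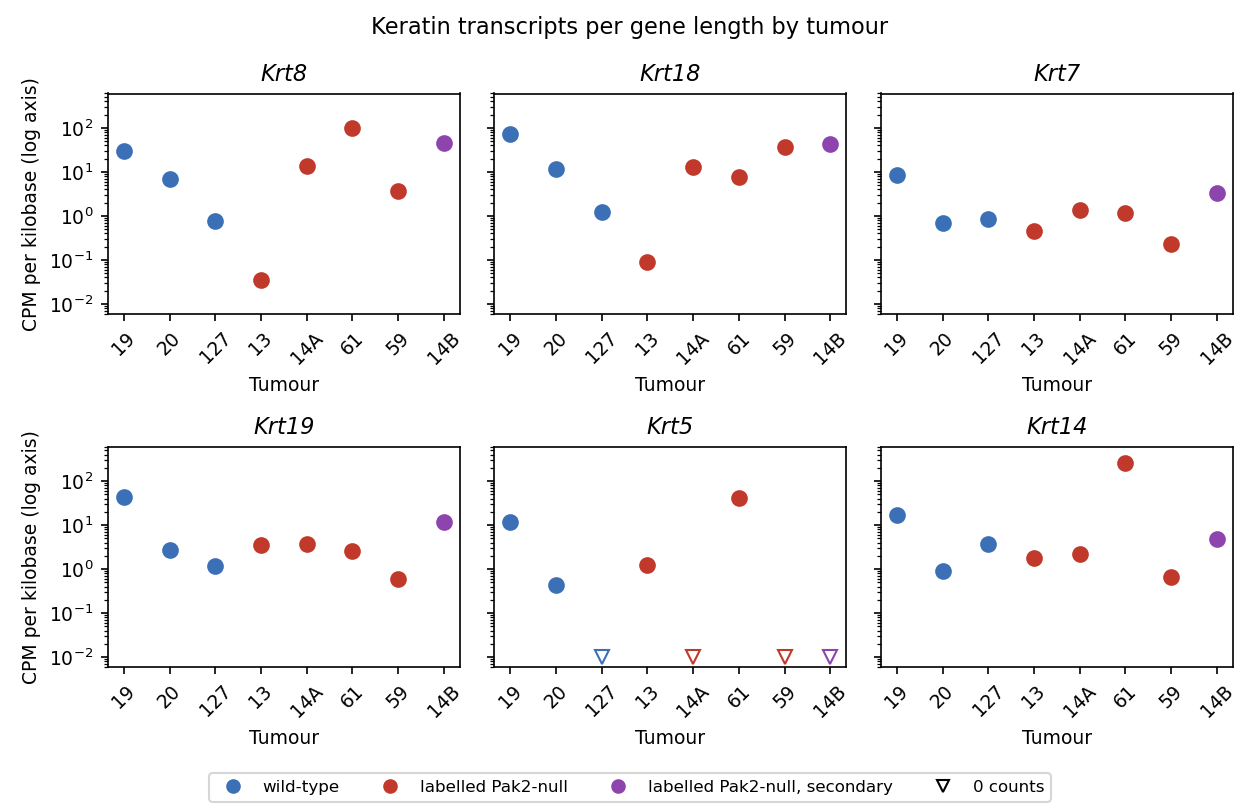
CPM per kilobase of gene length (log axis) for the 6 keratins in each tumour, coloured by label, with open triangles at the lower edge for 0 counts. Krt8 spans from under 0.1 in tumour 13 to 100.5 in tumour 61, Krt18 does not follow it in tumours 61 and 59, and Krt14 in tumour 61, at 261, is the highest point of any panel.

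Over the 6 keratins, type II chains summed to 0.381, 0.529 and 0.272 of type I chains per gene length in tumours 19, 20 and 127, and to 0.322, 0.800, 0.529 and 0.103 of them in tumours 13, 14A, 61 and 59. The ratio was 0.796 in tumour 14B. Type I transcripts thus exceeded type II transcripts of these 6 genes in each of the 8 tumours, and by the most in tumour 59. Of 19 other keratins, 5 passed the filter, 3 with a higher and 2 with a lower mean in the tumours labelled Pak2-null, and none had an unadjusted p under 0.05. Krt79, a type II keratin of the upper hair follicle and sebaceous duct, stood at 621 CPM in tumour 61 and at 0 to 2.04 CPM in the others, with a log2 fold change of 7.34 (SE 3.47, edgeR quasi-likelihood adjusted p = 0.434).

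Because the keratins and several junction genes were high in the same tumours, the 250 bases before each gene's start, taken from the RefSeq promoter windows on GRCm38.p6, were searched for 4 short motifs on both strands. The hexamer CAGGTG, whose reverse complement reads CACCTG, is an E-box to which the repressors of the Zeb and Snail families are known to bind. It was in 15 of the 23 members that had a window, against 19.4% of all genes with a window and 17.2% of all windows. Cdh1, Cdh3, Esrp1, Esrp2, Grhl2, Ovol1, Pkp3, Krt19, St14 and Prss8 had no window. The Grainyhead-like motif AACNGGTT was in 2 of 23 against 2.00% of genes, the AP-1 motif TGANTCA in 1 of 23 against 7.82%, and the GC box GGGCGG in 14 of 23 against 35.4%. None of these strings contains another. These are matches of letters, not sites shown to be bound. Some windows, those of Krt7 and Krt14 among them, lie inside the deposited span of their gene. For Cldn6, Jup and Spint2 the RefSeq start did not match the start of an annotated transcript, and Cldn6 and Spint2 are among the 15 with CAGGTG. The stretches printed here are from Krt18, Krt5, Krt14, Epcam and Ap1m2, the last 2 being among the 7 windows with repeated matches. Krt18 and Krt5 hold a match and the Krt14 window holds none. That window lies inside the deposited span of Krt14, chr11:100203162-100207548, so it says nothing about the bases before the deposited start. CAGGTG or CACCTG is in capitals and all else in lower case, 5′ to 3′ on the strand of the gene.
Krt18, chr15:102027966-102028179, plus strand: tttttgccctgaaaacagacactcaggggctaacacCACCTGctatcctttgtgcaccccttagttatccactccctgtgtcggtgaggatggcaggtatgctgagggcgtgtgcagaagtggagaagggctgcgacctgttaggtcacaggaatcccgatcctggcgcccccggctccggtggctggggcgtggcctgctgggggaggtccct
Krt5, chr15:101712906-101713155, minus strand: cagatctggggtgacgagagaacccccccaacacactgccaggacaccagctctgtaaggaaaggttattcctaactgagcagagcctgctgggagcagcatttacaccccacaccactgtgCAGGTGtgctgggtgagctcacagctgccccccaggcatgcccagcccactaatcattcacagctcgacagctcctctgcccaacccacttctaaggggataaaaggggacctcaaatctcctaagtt
Krt14, chr11:100206031-100206280, minus strand: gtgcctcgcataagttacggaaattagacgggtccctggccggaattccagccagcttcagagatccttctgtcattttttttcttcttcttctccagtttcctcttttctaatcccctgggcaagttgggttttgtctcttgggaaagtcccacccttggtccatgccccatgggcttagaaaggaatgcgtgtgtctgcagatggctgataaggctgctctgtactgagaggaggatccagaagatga
Epcam, chr17:87635729-87635978, plus strand: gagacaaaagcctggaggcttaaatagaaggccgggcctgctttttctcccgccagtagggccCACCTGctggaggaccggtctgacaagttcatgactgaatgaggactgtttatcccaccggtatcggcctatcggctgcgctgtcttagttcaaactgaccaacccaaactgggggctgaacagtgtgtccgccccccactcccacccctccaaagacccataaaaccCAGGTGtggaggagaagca
Ap1m2, chr9:21312338-21312583, minus strand: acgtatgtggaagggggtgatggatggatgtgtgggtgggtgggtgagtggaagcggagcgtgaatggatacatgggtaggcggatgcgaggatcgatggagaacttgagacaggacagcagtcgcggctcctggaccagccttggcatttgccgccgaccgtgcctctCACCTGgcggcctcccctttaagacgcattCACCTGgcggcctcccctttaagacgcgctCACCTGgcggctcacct
Counted from the RefSeq start, with -1 as the base before it, the match began at -214 in Krt18 and -128 in Krt5. In Epcam the matches began at -187 and -19, and in Ap1m2 the 3 in capitals began at -81, -51 and -21. A further Ap1m2 match, from -9 to -4, runs past the end of the printed stretch.

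The Zeb and Snail genes themselves, with 6 other genes on a list of mesenchymal transition factors, were all tested, and 7 of 10 had a higher mean in the tumours labelled Pak2-null, with none under an unadjusted p of 0.05. Zeb1 stood at 78.4 to 172 CPM in the wild-type tumours and 36.8 to 138 CPM in the primaries labelled Pak2-null. Snai1 stood at 31.3 to 70.8 and 3.70 to 46.9 CPM, in the same order. Both ranges overlapped between the labels and reached lower in the primaries labelled Pak2-null, whereas 7 of 10 genes on the list had a higher mean there. Zeb1 and Snai1 were chosen after their values were seen, so they do not stand for the list. Fn1, which encodes the matrix protein fibronectin, stood at 39431 CPM in tumour 13 and at 1494 to 6214 CPM in the others. Tumour 13 had the lowest sum of the 6 keratins, at 13.3 CPM, and tumour 127 the next, at 14.7 CPM. Whether the levels of Fn1 and of the keratins are linked was not tested.

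Transcripts of Cdh1, which encodes the epithelial cadherin E-cadherin, varied widely within both labels. Cdh1 stood at 41.0, 2.98 and 3.98 CPM in wild-type tumours 19, 20 and 127, at 1.80, 20.0, 52.9 and 4.44 CPM in tumours 13, 14A, 61 and 59, and at 50.7 CPM in tumour 14B. Tumours 61, 14B and 19 were high, tumour 14A was intermediate, and the other 4 did not exceed 4.44 CPM. Epcam, a surface adhesion glycoprotein of epithelia that mesothelium usually lacks, stood at 39.9, 5.21 and 3.40 CPM across tumours 19, 20 and 127, at 0.186, 6.06, 47.8 and 1.73 CPM in tumours 13, 14A, 61 and 59, and at 13.3 CPM in tumour 14B. Its 3 counts in tumour 13 were at the floor.

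Cdh3, the P-cadherin gene, had another order. It stood at 27.1, 4.16 and 2.44 CPM across tumours 19, 20 and 127, at 9.29, 3.19, 35.3 and 20.1 CPM in tumours 13, 14A, 61 and 59, and at 4.46 CPM in tumour 14B. Tumours 59 and 13, low for most of the other members, thus had more Cdh3 than tumours 14A and 14B. The log2 fold changes of Cdh1, Epcam and Cdh3 were 0.31 (SE 1.30), -0.21 (SE 1.57) and 0.61 (SE 1.03), with edgeR quasi-likelihood adjusted p-values of 0.942, 0.969 and 0.840. The catenins and nectins that hold cadherins in place were even by comparison, with 8 of 8 tested, 6 higher and 2 lower in the tumours labelled Pak2-null, a summed level of 653 to 1540 CPM over the 8 tumours, and none under an unadjusted p of 0.05.

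The claudins, the strands of the tight junction, were at low levels and did not move as a block. Cldn3 stood at 16.2, 0.683 and 0.578 CPM across tumours 19, 20 and 127, at 0, 3.19, 0.231 and 0.802 CPM in tumours 13, 14A, 61 and 59, and at 14.6 CPM in tumour 14B. Cldn4 stood at 4.22, 0.621 and 0.449 CPM across tumours 19, 20 and 127, at 0, 3.39, 12.8 and 0 CPM in tumours 13, 14A, 61 and 59, and at 5.598 CPM in tumour 14B. These 2 claudins, both receptors of a clostridial enterotoxin, parted in tumour 61, which had the most Cldn4 and 4 counts of Cldn3. Cldn7 stood at 8.39, 1.06 and 1.86 CPM across tumours 19, 20 and 127, at 0.619, 1.70, 3.12 and 0.370 CPM in tumours 13, 14A, 61 and 59, and at 8.81 CPM in tumour 14B. Cldn6, a claudin of embryonic epithelia that did not pass the filter, stood at 7.74 CPM (167 counts) in tumour 19, with 0 to 10 counts in the other 7 tumours.

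Occludin and tricellulin, the other membrane proteins of the seal, were highest in the 2 tumours numbered 14. Ocln stood at 3.94, 0.683 and 0.770 CPM across tumours 19, 20 and 127, at 0.0619, 5.602, 2.66 and 0.432 CPM in tumours 13, 14A, 61 and 59, and at 15.5 CPM in tumour 14B. Marveld2, which encodes tricellulin, stood at 3.57, 1.86 and 5.01 CPM across tumours 19, 20 and 127, at 0.619, 6.84, 4.10 and 2.35 CPM in tumours 13, 14A, 61 and 59, and at 7.15 CPM in tumour 14B. Marveld2 had the smallest difference between the labels of any member, a log2 fold change of 0.02 (SE 0.77). Tjp3, the scaffold ZO-3, stood at 11.8, 2.17 and 1.67 CPM across tumours 19, 20 and 127, at 1.05, 4.16, 8.20 and 2.22 CPM in tumours 13, 14A, 61 and 59, and at 5.91 CPM in tumour 14B. The 6 tested tight junction members had edgeR quasi-likelihood adjusted p-values of 0.582 to 0.996.

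Of 19 other tight junction genes, 14 were tested, with 5 higher and 9 lower in the tumours labelled Pak2-null and none that passed the adjusted test. Of the 14, Cldn1 and Cldn2 were under an unadjusted p of 0.05 (0.00530 and 0.0199, edgeR quasi-likelihood), against 12.9% of all genes. They went in opposite directions. Cldn1, a barrier-forming claudin, stood at 2.89 to 6.15 CPM in the wild-type tumours and at 59.7, 6.37, 123 and 39.0 CPM in tumours 13, 14A, 61 and 59, a log2 fold change of 3.66 (SE 0.94, edgeR quasi-likelihood adjusted p = 0.148). Cldn2, a pore-forming claudin, stood at 0.371 to 8.66 CPM in the wild-type tumours and at 0 to 0.751 CPM in the primaries labelled Pak2-null, a log2 fold change of -3.98 (SE 1.34, adjusted p = 0.262 in the same edgeR fit). Cldn1 was thus high in tumours 13 and 59, where Cldn3 and Cldn4 stood at 0 to 0.802 CPM. The 12 apical polarity genes place the junctions along the side of the cell. All 12 were tested, 4 higher and 8 lower in the tumours labelled Pak2-null. Inadl, the polarity scaffold PATJ, alone was under an unadjusted p of 0.05, against 12.9% of all genes. Its log2 fold change was -1.89 (SE 0.68, edgeR quasi-likelihood adjusted p = 0.293).

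Desmosomal genes showed the widest gap for any junction gene and also the most even. Dsp, which encodes desmoplakin, the link from the desmosome to keratin filaments, stood at 69.7, 1.55 and 5.90 CPM across tumours 19, 20 and 127, at 5.02, 3.13, 318 and 1.17 CPM in tumours 13, 14A, 61 and 59, and at 13.2 CPM in tumour 14B. Dsp was thus highest in the tumours with the most Krt14. Its log2 fold change was 1.67 (SE 2.10, edgeR quasi-likelihood adjusted p = 0.781), and it was 4.46 without tumour 19 and -3.02 without tumour 61. Jup, which encodes plakoglobin, a catenin shared by desmosomes and adherens junctions, stood at 58.6, 138 and 226 CPM across tumours 19, 20 and 127, at 142, 47.7, 238 and 74.6 CPM in tumours 13, 14A, 61 and 59, and at 64.7 CPM in tumour 14B. Jup had the narrowest range of the members, 2.32 log2 units over the primary tumours, and was low in tumour 19, where most other members were high. Pkp3, which encodes plakophilin 3, stood at 11.5, 5.34 and 2.37 CPM across tumours 19, 20 and 127, at 1.11, 21.0, 29.5 and 4.57 CPM in tumours 13, 14A, 61 and 59, and at 8.09 CPM in tumour 14B.

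Of 12 other desmosome genes, 9 were tested, with 6 higher and 3 lower in the tumours labelled Pak2-null and none that passed the adjusted test. Of the 9, the desmosomal cadherins Dsc2 and Dsc3 were under an unadjusted p of 0.05 (0.00502 and 0.0267, edgeR quasi-likelihood), against 12.9% of all genes. Dsc2 stood at 1.95, 1.49 and 0.128 CPM across tumours 19, 20 and 127 and at 10.6, 18.2, 46.1 and 7.71 CPM in tumours 13, 14A, 61 and 59. Its groups did not overlap, as for 14.0% of all genes, and its log2 fold change was 4.11 (SE 1.04, edgeR quasi-likelihood adjusted p = 0.145). Dsc3 stood at 1.21, 0.310 and 0.193 CPM across tumours 19, 20 and 127 and at 7.25, 38.6, 51.3 and 0 CPM in tumours 13, 14A, 61 and 59, so the groups overlapped through tumour 59. Perp, a tetraspan desmosomal protein of stratified epithelia, stood at 260.0 CPM in tumour 61 and 0.555 to 25.7 CPM in the others.

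Per gene length, Jup was the most abundant member in the wild-type tumours, at 44.0 ± 26.2 CPM per kilobase (mean ± SD, n = 3), followed by Krt18 at 27.9 ± 37.6, Krt19 at 15.7 ± 23.8 and Spint2 at 12.9 ± 8.41. Among primary tumours labelled Pak2-null the order of means was Krt14 at 66.3 ± 129.5 CPM per kilobase (n = 4), Jup at 39.2 ± 26.5, Krt8 at 29.4 ± 47.7 and Spint2 at 20.9 ± 19.6. The step from Krt14 to Jup among the latter was larger than the SD of Jup but smaller than that of Krt14, and each other step was smaller than both SDs beside it, so neighbours in either order were not separated by their spread, and the first place of Krt14 came from tumour 61.

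The regulators of epithelial identity were lower in level and had the same tumours at their ends. Esrp1 and Esrp2 encode splicing factors that set epithelial exon choice. Esrp1 stood at 9.55, 0 and 0.385 CPM across tumours 19, 20 and 127, at 0, 1.59, 31.9 and 0 CPM in tumours 13, 14A, 61 and 59, and at 15.03 CPM in tumour 14B. Esrp2 stood at 8.48, 0.435 and 1.22 CPM across tumours 19, 20 and 127, at 1.05, 1.64, 37.9 and 1.54 CPM in tumours 13, 14A, 61 and 59, and at 14.7 CPM in tumour 14B. Both were thus highest in tumours 61, 14B and 19, and Esrp1 had 0 counts in tumours 20, 13 and 59. The log2 fold change was 1.33 (SE 2.45) for Esrp1 and 1.64 (SE 1.60) for Esrp2, with edgeR quasi-likelihood adjusted p-values of 0.852 and 0.708.

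The Grainyhead-like factors Grhl1 and Grhl2, which activate junction and barrier genes, were not parallel. Grhl1 stood at 7.65, 3.29 and 3.98 CPM across tumours 19, 20 and 127, at 0.433, 19.0, 38.8 and 0.247 CPM in tumours 13, 14A, 61 and 59, and at 15.7 CPM in tumour 14B. Grhl2 stood at 6.58, 0.435 and 0.449 CPM across tumours 19, 20 and 127, at 0.0619, 0.103, 6.93 and 0.123 CPM in tumours 13, 14A, 61 and 59, and at 2.49 CPM in tumour 14B. Tumour 14A thus had much Grhl1 with 2 counts of Grhl2, whereas tumours 19 and 61 had both.

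Ovol1 and Ovol2 are zinc-finger factors that hold back mesenchymal genes. Ovol1 stood at 1.34, 1.18 and 1.09 CPM across tumours 19, 20 and 127, at 0.124, 1.28, 6.64 and 0.432 CPM in tumours 13, 14A, 61 and 59, and at 2.28 CPM in tumour 14B. Ovol2 had 0 to 11 counts per tumour, with the most in tumour 19. Elf3, an ETS factor of simple epithelia, stood at 1.62, 0.621 and 0.513 CPM across tumours 19, 20 and 127, at 0, 0.925, 0.116 and 0 CPM in tumours 13, 14A, 61 and 59, and at 3.42 CPM in tumour 14B. Elf3 thus had 2 counts in tumour 61, where Esrp1, Esrp2, Grhl1, Grhl2 and Ovol1 had their highest levels, and its log2 fold change was -1.75 (SE 1.34, edgeR quasi-likelihood adjusted p = 0.625). Of 26 other epithelial regulators and surface genes, 25 were in the table and 22 were tested, 15 higher and 7 lower in the tumours labelled Pak2-null, with none that passed the adjusted test. Itgb6, the beta chain of an epithelial integrin that activates TGF-beta, and Klf5, a Krüppel-like factor, were under an unadjusted p of 0.05, at log2 fold changes of -5.02 (SE 1.34) and -3.63 (SE 0.98), with edgeR quasi-likelihood adjusted p-values of 0.159 and 0.160. Klf5 stood at 3.76, 18.4 and 70.7 CPM across tumours 19, 20 and 127 and at 0.771 to 4.22 CPM in the primaries labelled Pak2-null, so tumour 19, the wild-type tumour with the most keratin, had the least Klf5 of its group.

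The membrane protease network was present as a set in 4 tumours. St14, the transmembrane protease matriptase, stood at 24.6, 3.48 and 3.27 CPM across tumours 19, 20 and 127, at 1.49, 18.7, 28.5 and 5.31 CPM in tumours 13, 14A, 61 and 59, and at 14.8 CPM in tumour 14B. Prss8, the protease prostasin that acts with matriptase, stood at 4.31, 0.248 and 0.128 CPM across tumours 19, 20 and 127, at 0.310, 2.72, 14.4 and 0 CPM in tumours 13, 14A, 61 and 59, and at 24.2 CPM in tumour 14B. Tumours 19, 14A, 61 and 14B thus held both, and tumours 20, 127, 13 and 59 had at most 5 counts of Prss8. Their inhibitors had the same high tumours: Spint1 stood at 6.31, 0.559 and 1.16 CPM across tumours 19, 20 and 127, at 0.248, 14.5, 30.4 and 1.48 CPM in tumours 13, 14A, 61 and 59, and at 25.7 CPM in tumour 14B. Spint2 stood at 32.0, 16.8 and 7.70 CPM across tumours 19, 20 and 127, at 0.619, 44.9, 63.2 and 13.5 CPM in tumours 13, 14A, 61 and 59, and at 83.1 CPM in tumour 14B. Tumour 13 held the least of both inhibitors and of St14. The log2 fold changes of the 4 genes ran from 0.38 (SE 1.09) for St14 to 2.12 (SE 1.54) for Spint1, with edgeR quasi-likelihood adjusted p-values of 0.608 to 0.912.

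Ap1m2 and Rab25, which sort and recycle basolateral and apical membrane proteins in epithelial cells, were highest in tumours 61, 14B and 19. Tumour 14A was lower for both, with 0.720 CPM of Rab25. Ap1m2 stood at 4.17, 0.0621 and 0.0642 CPM across tumours 19, 20 and 127, at 0.310, 2.16, 25.0 and 0.247 CPM in tumours 13, 14A, 61 and 59, and at 7.88 CPM in tumour 14B. Rab25 stood at 5.15, 0.310 and 0.321 CPM across tumours 19, 20 and 127, at 0.248, 0.720, 5.95 and 0 CPM in tumours 13, 14A, 61 and 59, and at 6.32 CPM in tumour 14B. Muc1, a membrane mucin of glandular and mesothelial surfaces, went the other way in tumour 61. It stood at 8.11, 2.98 and 1.54 CPM across tumours 19, 20 and 127, at 0.495, 3.80, 0.116 and 0.494 CPM in tumours 13, 14A, 61 and 59, and at 29.1 CPM in tumour 14B. Muc1 had 2 counts in tumour 61, its lowest, and a log2 fold change of -1.75 (SE 1.13, edgeR quasi-likelihood adjusted p = 0.568). Cldn3, Elf3 and Muc1 thus had 4, 2 and 2 counts in tumour 61, whereas Krt8, Epcam and Cldn4, like the basal keratins and Dsp, had their highest levels of the 8 tumours there.

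The direction of the genotype difference turned on single tumours. With tumour 19 left out, 26 of 30 tested members had a higher mean in the tumours labelled Pak2-null, with a median log2 fold change of 1.93. With tumour 61 left out, 5 of 26 tested members did and the median was -0.99. Esrp1, Prss8, Ap1m2 and Rab25, each highest of the primary tumours in tumour 61, no longer passed the filter there. With both left out, an alternative chosen after the values were seen, 16 of 26 did and the median was 0.62. In none of these 3 fits did a member pass the adjusted test.

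**Figure D3:**
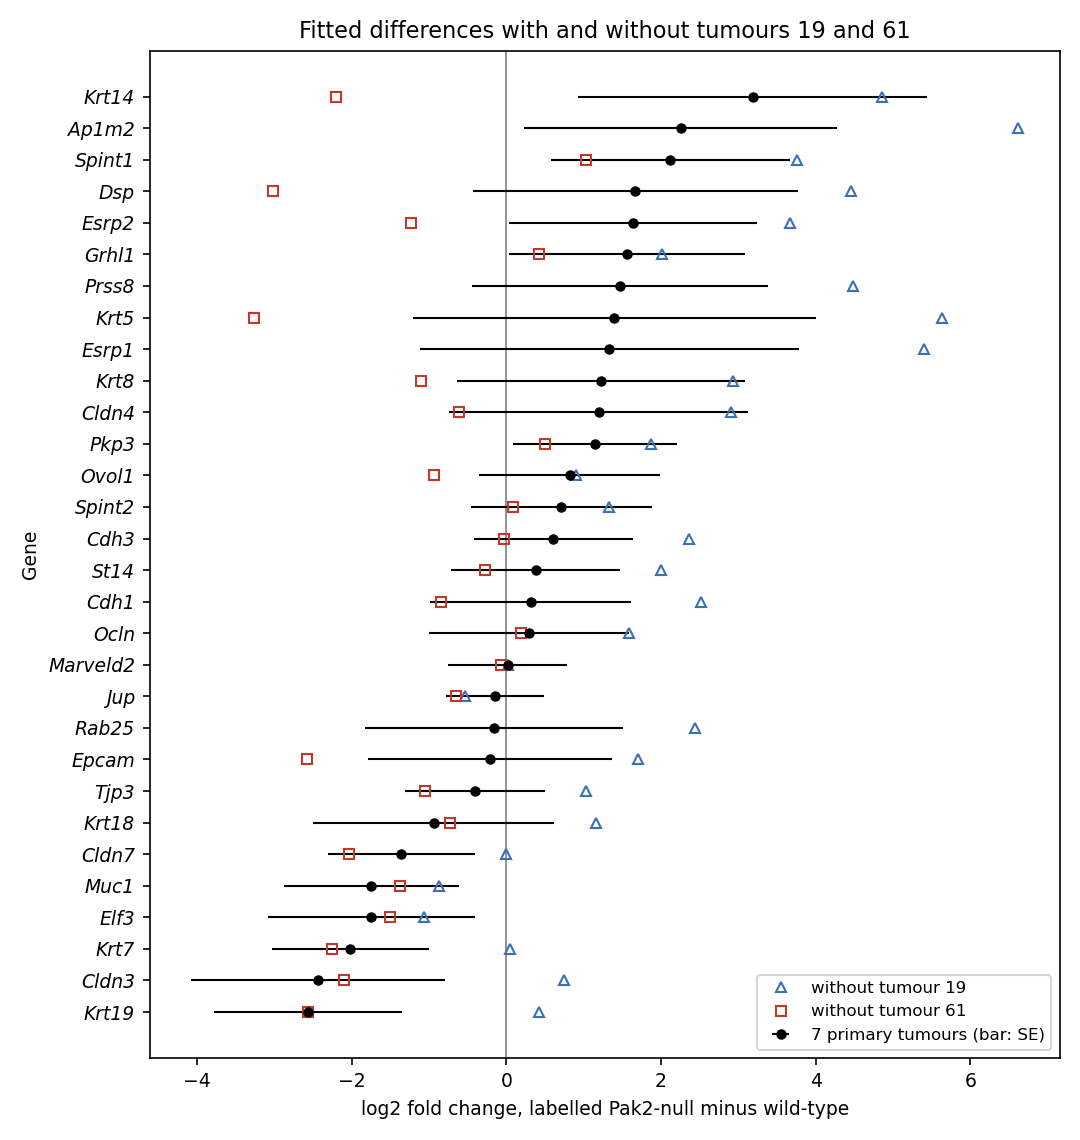
Log2 fold change (labelled Pak2-null minus wild-type) of the 30 tested members over 7 primary tumours (black, bar: SE), without tumour 19 (blue triangles) and without tumour 61 (red squares, for the 26 of them that still passed the filter). The triangles lie mostly to the right of 0 and the squares mostly to the left, with medians of 1.93 and -0.99.

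Some markers of other epithelial tissues were highest in tumours 61 and 19. In tumour 61, a list of 11 sebaceous gland and hair follicle genes, written after the values were seen, summed to 6687 CPM, against 156 to 718 CPM in the other 7 tumours. Awat2, a wax synthase of sebaceous and meibomian glands, stood at 1041 CPM there and at 0.232 to 1.67 CPM in the others, and Scd1, a fatty acid desaturase also made by adipocytes, at 4416 CPM against 128 to 589 CPM. All 11 genes of that list, of which Krt15, Krt17 and Krt79 are also on the list of other keratins, were detected in tumour 61. The stratified skin list of 8 genes summed to 235 CPM in tumour 61 and 2.98 to 9.47 CPM in the others, with Sprr1a, a cornified envelope precursor, at 156 CPM. The terminal skin genes Krt1, Flg and Lor were at 0, 0.231 and 2.14 CPM in tumour 61. In tumour 19, a list of 8 mammary epithelium genes, also written after the values were seen, summed to 198 CPM, against 0.557 to 12.5 CPM in the other 7 tumours. The milk protein genes Csn1s1, Csn2 and Csn3 stood at 62.4, 52.4 and 38.1 CPM in tumour 19 and at most at 1.30, 0.565 and 5.65 CPM elsewhere, and 1 gene of the list was at 0.

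Tumours 14A and 14B carried pancreatic transcripts. The exocrine pancreas list of 12 genes summed to 39056 CPM in tumour 14A and 273096 CPM in tumour 14B, against 88.6 CPM in tumour 13 and 5.37 to 20.3 CPM in the other 5 tumours. It held 3.72% of all counts in tumour 14A and 19.6% in tumour 14B, and 3 of its genes are in the tested set to which CPM is scaled. All 12 genes were detected in both. A list of 6 pancreatic islet genes, written after the values were seen, summed to 89.7 CPM in tumour 14A and 912 CPM in tumour 14B and to at most 0.370 CPM elsewhere. Lists for intestinal epithelium and urothelium did not exceed 11.8 and 1.10 CPM in any tumour, and the liver list did not exceed 52.6 CPM. The skeletal muscle list summed to 2531 to 28096 CPM in the wild-type tumours and 10.96 to 674 CPM in the primaries labelled Pak2-null. The part of these tissues in the keratin and junction levels was not tested.

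**Figure D4:**
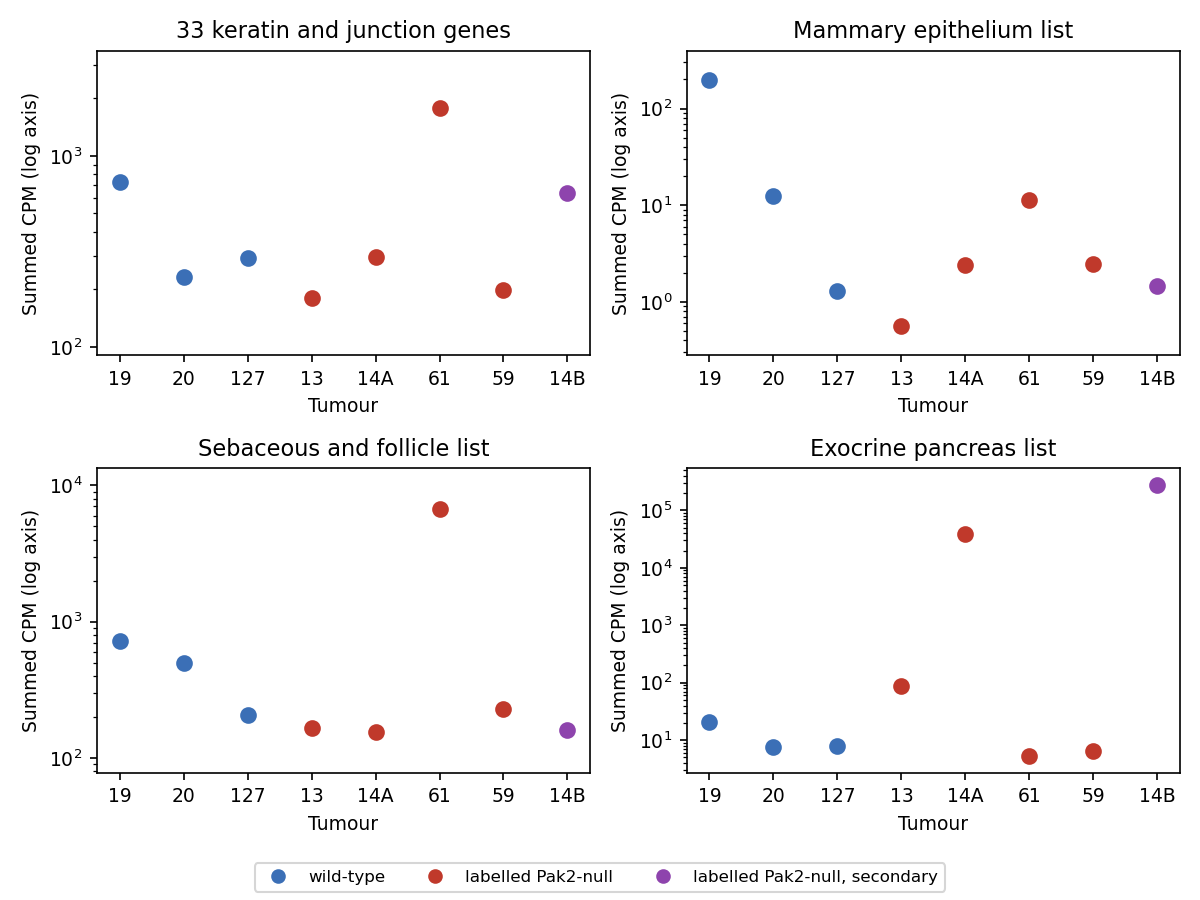
Summed CPM (log axes) per tumour of the 33 keratin and junction genes and of lists for mammary epithelium, sebaceous gland and hair follicle, and exocrine pancreas, coloured by label. Tumour 19 was the highest for mammary genes (198 CPM), tumour 61 for sebaceous and follicle genes (6687 CPM) and tumour 14B for pancreatic genes (273096 CPM). The mammary and the sebaceous and follicle lists were written after the values were seen, so their highest tumours were known beforehand. Tumour 14A had 39056 CPM of pancreatic genes and 296 CPM in the first panel, of which Jup was 47.7 CPM. Wild-type tumour 127 had 291 CPM there, of which Jup was 226 CPM. What pancreatic tissue adds to the first panel was not tested.

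The secondary tumour 14B had more of most members than the primary tumour 14A, which bears the same number. With 1 tumour each there was no test. Of the 30 members, 18 were more than 2-fold higher in tumour 14B, against 8.89% of all genes, and 1, Pkp3, was more than 2-fold lower, against 7.09%. The median difference in log2 CPM was 1.31 over the members and 0.01 over all genes. It was 1.29 with the exocrine pancreas list taken out of the table before scaling, while that list itself was 6.99 times as high in tumour 14B as in tumour 14A. Taking the list out changes only the scaling and leaves in place any member transcripts from pancreatic tissue. What such tissue adds to the member levels was not tested. The largest differences among the tested members were in Esrp1, Prss8 and Esrp2, at 3.14, 3.09 and 3.07 log2 units, followed by Rab25 at 2.94 and Muc1 at 2.90. Krt8 and Krt18 differed by 1.69 and 1.76 log2 units, at a ratio to each other close to 1 in both tumours. St14 and Grhl1 were slightly lower in tumour 14B, by -0.33 and -0.28 log2 units, and Krt5 had 0 counts in both.

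**Figure D5:**
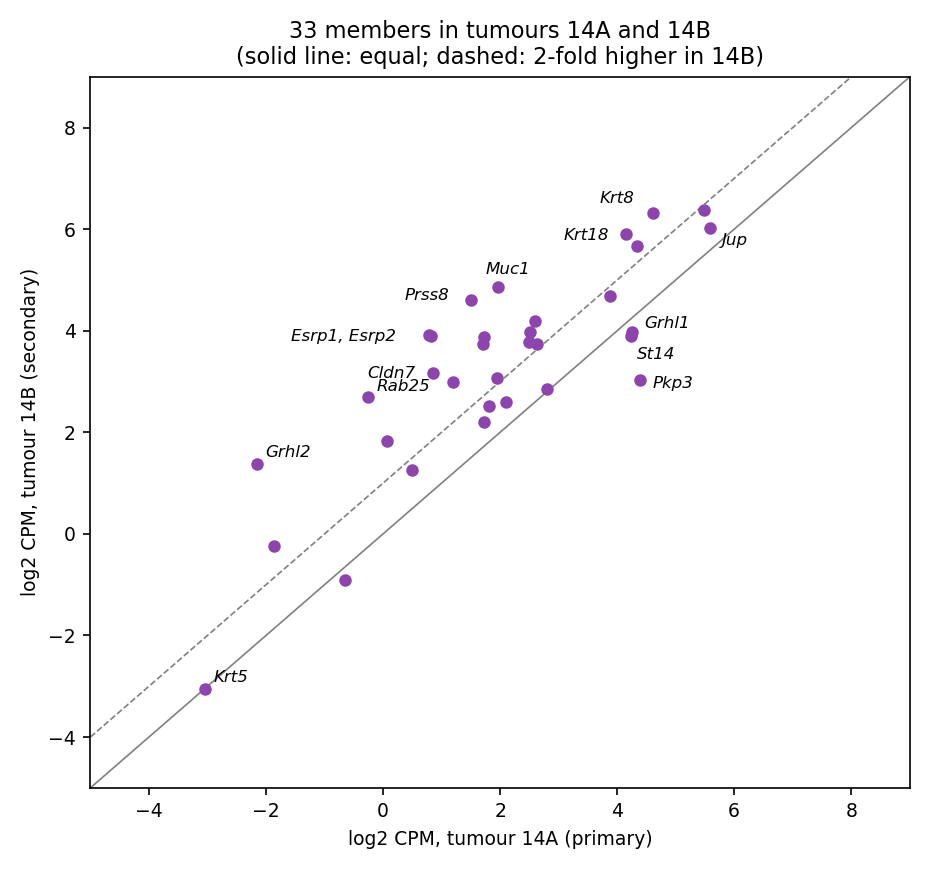
Log2 CPM of the 33 genes in the primary tumour 14A (horizontal) and the secondary tumour 14B (vertical), 1 point per gene, with a solid line at equal levels and a dashed line at 2-fold higher in tumour 14B. Most points lie above the solid line, Grhl2, Esrp1, Prss8 and Esrp2 farthest, and Pkp3 lies below it by 1.36 log2 units.

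Against the mean of the 4 primary tumours labelled Pak2-null, tumour 14B was more than 2-fold higher for 22 of 30 members, against 11.5% of all genes, and more than 2-fold lower for 2, against 11.3%. The median difference was 2.34 log2 units over the members and -0.02 over all genes. The largest were in Muc1, at 5.25 log2 units, Cldn3, at 4.62, and Prss8, at 4.32, and the lower ones were Krt5 and Cdh3, at -3.53 and -1.42. Tumour 14B had 281 counts of Muc1, 141 of Cldn3 and 0 of Krt5, and tumour 61 had 2, 4 and 1582. Krt8, Cldn4 and Tjp3 were higher in tumour 61, at 181, 12.8 and 8.20 CPM, than in tumour 14B, at 79.3, 5.60 and 5.91 CPM.

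Some levels carry a limit from counting. The strand setting is not given in the sources used here. Exons on the opposite strand overlap 19.8% of the exon bases of Ovol1, 17.0% of those of Ovol2, 7.31% of those of Elf3 and 6.59% of those of Prss8. Their low counts may therefore be too high or too low, depending on how reads in the overlaps were counted. Smaller overlaps of about 5% touch Krt5, Krt8, Dsp and Esrp2.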

How the data were processed

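The authors deposited a table of raw read counts per gene, 1 column per tumour, from mRNA-enriched Illumina libraries, with a gene length in bases for each gene. STAR, HTSeq and the build GRCm38 (mm10) are named in the submitters' processing notes. Their versions, the annotation, the strand setting and any filter were not given in the sources used here. Members and gene lists were chosen with earlier results of these data known, and the lists for mammary epithelium, sebaceous gland and hair follicle, and pancreatic islet after the values here were seen. All 33 members are named. Of the other lists, up to 4 tested genes with the lowest p could be named by rule. Perp, Fn1, Scd1, Csn1s1, Csn2, Csn3, Zeb1, Snai1, Krt1, Flg, Lor, Msln, Wt1, Upk3b, Calb2 and Vim were chosen after their values were seen.

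Counts of the 7 primary tumours went into edgeR 4.0.16 under R 4.3.3 (TMM, filterByExpr with a minimum count of 10 and a minimum total of 15, no covariate, as the labels name no batch). Genotypes were compared with its quasi-likelihood test, with p-values adjusted by Benjamini-Hochberg over 15412 genes. A standard error (SE) was taken as the absolute log2 fold change over the square root of F. The fit was tested on simulated data. CPM used library sizes over tested genes and TMM factors over 8 tumours, log2 CPM a prior count of 2, and levels between genes the deposited gene length. No 2 tumours were copies, since the mean chi-square per gene of the most alike pair, tumours 20 and 127, was 71.5. Copies were sought with BLAST 2.17.0 (95% identity and 80% of the copy covered, or more) against GENCODE M21, which also gave the overlaps. Alternatives were DESeq2 1.42.0, limma 3.58.1 (voom, with and without sample quality weights), other scalings and filters, summed copies, and each tumour left out.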

Additional observations from a re-analysis of the deposited data

Results flagged for a closer look

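In the 4 primary tumours labelled Pak2-null, 2 of the 33 genes had a tumour that stood far from the rest, and in both it was tumour 61. For Esrp2 the gap from tumour 61 (37.9 CPM) to the nearest of the others (1.05 to 1.64 CPM) was 0.883 of the whole range on the log2 CPM scale. For Grhl2 the gap from tumour 61 (6.93 CPM) to the others (0.0619 to 0.123 CPM, at most 2 counts each) was 0.921 of the range. Both exceed Dixon's critical value for 4 samples, which chance passes in about 1 in 20 such groups. The 2 of 33 genes are thus near the share that chance gives, and the share over all genes is not given here. For Grhl2 the prior count of 2 also draws the low values of the other tumours together.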

How the results depend on the processing

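In the fits named here no member passed the adjusted test, and the lowest adjusted p of a member was 0.0504, with limma-voom and quality weights. DESeq2 gave no adjusted p for Epcam, Cldn3, Esrp1, Esrp2, Dsp, Krt5, Krt14, Krt19, Ap1m2 and Rab25. Its adjusted test therefore says nothing about these members. Of the per-gene values under the alternatives, 492 kept their direction and 62, in 24 members, changed sign. The median log2 fold change of the tested members ran from -0.99 to 1.93 with 1 tumour left out (the lowest without tumour 61, the highest without tumour 19, and -0.04 without tumour 20), and it was -0.35 with limma-voom and -0.03 with quality weights, against 0.49. With 1 tumour left out, 5 to 26 tested members had a higher mean in the tumours labelled Pak2-null, 0 to 2 had an unadjusted p under 0.05, 0 were called and 0 to 59 genes were called, against 11 over all 7 tumours. Limma-voom gave 9 members with a higher mean. Genes called over all genes were 1149 with DESeq2, 950 with quality weights, 25 with limma-voom, 20 with at least 1 CPM in at least 3 tumours, 4 with all 8 tumours in the fit, and 0 without tumours 19 and 61. Members with an unadjusted p under 0.05 were 1 with DESeq2 (Krt7), 1 with limma-voom (Elf3) and 3 with quality weights (Cdh3, Elf3 and Muc1). The cause was not tested.

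Log2 fold changes that changed sign were, with library size only, -0.0054 for Marveld2. With limma-voom they were -1.25 for Cldn4, -0.53 for Ocln, -0.27 for Marveld2, -0.16 for Esrp1, -0.50 for Grhl1, -0.41 for Ovol1, -0.16 for Dsp, -0.77 for Krt5, -0.50 for Krt8 and -0.30 for Spint2. With quality weights they were -1.87 for Cldn4, -0.37 for Ocln, -0.18 for Marveld2, 0.34 for Tjp3, -1.47 for Grhl1, -0.47 for Ovol1, 0.65 for Krt18 and -0.13 for Prss8. Without tumours 19 and 61, an alternative chosen after seeing the data, they were 1.08 for Cldn3, -0.068 for Marveld2, 0.37 for Tjp3, -0.87 for Ovol1, -0.26 for Dsp, -0.56 for Krt14, 1.37 for Krt18 and 0.42 for Krt19. With 1 tumour left out, the values ran from -0.85 to 2.51 for Cdh1, -0.026 to 2.36 for Cdh3, -4.04 to 0.74 for Cldn3, -0.62 to 2.91 for Cldn4, -3.02 to 4.46 for Dsp, -2.58 to 1.70 for Epcam, -1.24 to 3.67 for Esrp2, -0.65 to 0.36 for Jup, -2.21 to 4.86 for Krt14, -2.04 to 1.16 for Krt18, -3.13 to 0.42 for Krt19, -3.27 to 5.64 for Krt5, -2.50 to 0.046 for Krt7, -1.11 to 2.93 for Krt8, -0.55 to 0.36 for Marveld2, -0.77 to 1.59 for Ocln, -0.93 to 1.21 for Ovol1, -0.65 to 2.43 for Rab25, -0.28 to 2.00 for St14 and -1.05 to 1.03 for Tjp3. The median difference of tumour 14B from tumour 14A stayed between 1.10 and 1.33, and that from the mean of the 4 primary tumours labelled Pak2-null between 2.12 and 2.39, under other prior counts, scalings, a stricter filter and, added after seeing the data, without the exocrine pancreas list. Leaving out that list changes only the scaling, so it does not show what pancreatic tissue adds to the members. No paired analysis was possible because the labels give the groups no shared replicate numbers. Depth limits Cldn6, Ovol2, Elf3 and Grhl2, which had 10 counts or fewer in most tumours.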
